A study of Arabidopsis thaliana with 12 samples.

Results

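A set of 101 of the 22746 probe sets on the array had a lower signal on ethylene than in air in wild-type Arabidopsis thaliana seedlings. In the ein2 mutant their signal on ethylene was at most 0.3 under their air level on the log2 scale, with no upper limit. The set was chosen from measured values. A probe set entered when its wild-type mean on ethylene minus its mean in air was -1.5 or less on the log2 scale, both wild-type ethylene arrays lay under both wild-type air arrays, the ein2 difference was -0.3 or more, and the wild-type air mean was at least 9 on the log2 scale. These conditions were met by 111 probe sets. The 10 left out were AT4G26790, AT1G75900, AT3G50400 and AT1G74460 as GDSL lipases, AT1G54540 of the LEA hydroxyproline-rich glycoproteins, TBL37, the cytochrome P450 gene AT1G73340, and SWEET17, HOS3-1 and AT5G13900 by name. Of the 101 probe sets, 43 match exactly 1 gene in the platform annotation, 2 match several genes and 56 are not listed there. Those 56 are unnamed here, so whether any belongs to the left-out families cannot be told.

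The arrays were hybridised with RNA of whole dark-grown seedlings of the Columbia accession. Every sample title ends in polyA. The 6 groups held 2 arrays each: the mutant ein5-1 on ethylene and in air, the mutant ein2-5 on ethylene and in air, and wild type (Col-0) on ethylene and in air. Ethylene was given for 4 h at 10 ppm, per the series text, to seedlings grown for 3 days in the dark at 24 °C. The texts of 11 of the 12 samples speak of 5 days at 25 °C under ethylene, whether the title says ethylene or air. The text of the remaining sample, ein2 air array 1, gives 3 days at 24 °C. That array is part of the ein2 air mean used in the choice. Whether its seedlings differed in age or temperature cannot be told. Each mutant is represented by 1 allele. Whether a group's 2 arrays come from different cultures is not labelled, and the spread behind each p-value may therefore be technical. The labels' extraction text names mature leaves and the other labels seedlings.

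Ethylene is bound by receptors in the endoplasmic reticulum membrane, and binding releases EIN2, a membrane protein whose cleaved end passes the signal on to transcription factors of the EIN3 family. Seedlings without EIN2 do not show the ethylene response of dark growth, in which the hypocotyl and root stay short and thick and the apical hook tightens. EIN5, also known as XRN4, is a cytoplasmic exoribonuclease that degrades decapped messenger RNA from its 5′ end, and ein5 seedlings respond to ethylene weakly. Growth of a dark-grown hypocotyl goes with the laying down of new cell wall and of a cuticle, the waxy outer layer of the epidermis.

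Roles were assigned by hand to 35 of the 43 genes and to none of the other 58 probe sets. Of the 43 genes, 4 encode proteins of surface lipid, 9 cell wall proteins, 5 regulators, 4 proteins of membranes and transport, 7 other metabolic enzymes and 6 proteins of other families, and 8 are given no role. Only 5 carry a gene symbol (WSD1, PME61, LBD29, OCT1 and UGT71C1). For the locus numbers the family named is background from general knowledge of the Arabidopsis annotation. No 2 of the 43 genes lay within 5 genes of each other in the gene order of the TAIR10.1 assembly.

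Levels are intensities scaled to a common median, and changes are differences of log2(level + 16), ethylene minus air, with the standard error from the limma fit. The median level of the 101 probe sets was 1212 and 1307 in the ein5 ethylene arrays 1 and 2, against 2186 and 2066 in the ein5 air arrays. In ein2 it was 2539.9 and 2320.2 on ethylene, against 2445 and 2451 in air. Wild type had 671 and 665 on ethylene, against 2785 and 2226 in air. The wild-type and ein2 arrays chose the set, so their part of this pattern is a description and was not tested. The ein5 arrays took no part in the choice, and there both ethylene arrays lay below both air arrays.

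The question left by the choice of the set was what the same transcripts did on ethylene in ein5. In ein5, 39 of the 101 probe sets (38.6%) fell on ethylene at a limma adjusted p under 0.05 and 0 rose, against 0.849% of all probe sets lower at that threshold. Among probe sets with a wild-type air mean of at least 9, the condition on brightness that the choice imposed, 1.33% were lower. The change was negative in 100 of the 101, against 56.7% of all probe sets, and both ethylene arrays lay under both air arrays in 92 (91.1%), against 28.0% of all, and above them in 1, against 18.8% of all. At an unadjusted p under 0.05, 78 were lower, against 7.32% of all. Among the probe sets at that brightness the shares were 54.0% negative, 28.5% with both ethylene arrays under both air arrays and 9.54% lower at the unadjusted p. The median ein5 change of the set was -0.68, with quartiles of -0.92 and -0.48, against a median of -0.05 over all probe sets. As the set was proposed with earlier results of these arrays known, these counts are a description, with no test over the set.

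The count of calls rests on the way the variance was estimated. The spread of each probe set came from all 12 arrays, including the wild-type and ein2 arrays that chose the set. With the ein5 arrays alone, 33 of the 101 were called lower, against 0.721% of all probe sets. With variances that followed no trend with intensity, 5 of the 101 were called lower, none of them among the 43 genes, and 21 of all probe sets. Leaving out ein5 air 1 or 2 gave 12 and 19 calls, and leaving out ein5 ethylene 1 or 2 gave 15 and 18.

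The ein5 changes were smaller than those of wild type in all 101 probe sets, and in 79 less than 0.5 times as large. The wild-type median change was -1.76 and the lowest -3.15, values on which the probe sets were chosen. For that reason the difference between the wild-type and ein5 responses was not tested. In ein2 the median was -0.08 and the highest value 1.00, where the lower end is fixed by the choice. Both ein2 ethylene arrays lay under both air arrays in 26 of the 101 and above them in 21, against 20.2% and 24.4% of all probe sets.

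Among the surface lipid genes, WSD1 encodes a bifunctional wax ester synthase and diacylglycerol acyltransferase that makes stem wax esters. WSD1 lay at 408 and 658 in ein5 ethylene, against 1147 and 909 in ein5 air. Its ein5 change of -0.96 ± 0.24 missed the threshold (adjusted p = 0.0671), although the arrays did not overlap. In wild type WSD1 lay at 491 and 571 on ethylene, against 1735 and 1626 in air, so that the 2 genotypes overlapped on ethylene. In ein2 the levels were 755 and 829.5 on ethylene, against 943 and 795 in air, which overlap and are all under those of wild type in air.

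Genes of the same acyltransferase family supplied 2 more of the 43. AT5G12420 lay at 1881 and 2312 in ein5 ethylene, against 4201 and 3309 in ein5 air, a fall of -0.83 ± 0.19 (adjusted p = 0.0418). In wild type it lay at 797 and 569 on ethylene, against 4071 and 2968 in air, and in ein2 at 3635 and 3811 on ethylene, against 3808 and 4303 in air. The air levels of AT5G12420 thus overlapped between all 3 genotypes, and on ethylene the genotypes stood apart in the order wild type, ein5, ein2. This call was among the least stable, being lost in 11 of 21 alternative settings. AT3G49190 lay at 943 and 877 in ein5 ethylene, against 1356 and 1554 in ein5 air (-0.67 ± 0.23, adjusted p = 0.215). Its wild-type levels were 295 and 417 on ethylene, against 1260.0 and 1034 in air, and its ein2 levels were 818 and 703 on ethylene, against 827 and 627 in air.

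The family, listed after these values were seen, has 11 genes, of which 5 matched a probe set with 1 gene in the platform annotation. Outside the set, AT3G49210 lay at 2875 and 2861 in wild-type ethylene, against 3646 and 3314 in wild-type air. Its wild-type change was -0.28, its ein5 change -0.31 and its ein2 change -0.06. The fifth gene, AT1G72110, was dim, with a highest level of 160 over the 12 arrays.

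AT4G22610, of the lipid transfer protein family, was the brightest of the lipid genes. It lay at 4362 and 3175 in ein5 ethylene, against 7274 and 6618 in ein5 air, a fall of -0.90 ± 0.17 (adjusted p = 0.0146). In wild type the levels were 2432 and 2194 on ethylene, against 12122 and 8573 in air. In ein2 they were 10651 and 11518 on ethylene, against 10783 and 11097 in air. The ein2 arrays thus overlapped at the wild-type air level, while the ein5 air arrays lay under both wild-type air arrays.

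Cell wall genes formed the largest group of the roles assigned by hand. At an adjusted p under 0.05, 5 of 9 were lower in ein5, against 38.6% of the set and 0.849% of all probe sets. The ein5 change was negative in 8 of the 9, against 56.7% of all probe sets. PME61 encodes a pectin methylesterase, an enzyme that removes methyl groups from wall pectin. Its level was 1344 and 1462 in ein5 ethylene, against 2819.9 and 2491 in ein5 air (-0.91 ± 0.17, adjusted p = 0.0147). In wild type PME61 lay at 928 and 1099 on ethylene, against 3910.5 and 2636 in air. In ein2 both ethylene arrays, at 3361 and 3624, lay above both air arrays, at 2680.2 and 2747.

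AT4G16980 belongs to the arabinogalactan proteins, glycoproteins of the wall and plasma membrane surface, and was the brightest of the 43 genes in wild-type air. Its level was 10066 and 10169 in ein5 ethylene, against 23997 and 23234 in ein5 air, a fall of -1.22 ± 0.17 (adjusted p = 0.00214). The wild-type levels were 4192 and 6928 on ethylene, against 23718 and 22838 in air. In ein2 it stood at 29146 and 29163 on ethylene, against 24608 and 24306 in air. In air wild type and ein5 overlapped and ein2 lay just above both, whereas on ethylene the 3 genotypes stood well apart.

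AT2G22510, of the hydroxyproline-rich glycoproteins, lay at 2724 and 2768 in ein5 ethylene, against 5819 and 5369.6 in ein5 air (-1.02 ± 0.15, adjusted p = 0.00324). In wild type it lay at 915 and 1199 on ethylene, against 4548 and 3439 in air. On ethylene in ein2 the level was 6562 and 7521, above the 4399 and 4812 of ein2 air. AT2G16630 and AT5G15780 encode proteins related to the pollen allergen Ole e 1 and to extensins, which are structural wall proteins. AT2G16630 lay at 2931 and 2721 in ein5 ethylene, against 5382 and 5229.7 in ein5 air (-0.91 ± 0.12, adjusted p = 0.000959), the lowest adjusted p of the 43 genes. In wild type its levels were 1875 and 1896 on ethylene, against 6816 and 5966 in air, and those of ein2 overlapped, at 5782 and 6785 on ethylene, against 5832 and 5562 in air.

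AT5G15780 lay at 628 and 653 in ein5 ethylene, against 881 and 1288 in ein5 air, and did not pass (-0.72 ± 0.31, adjusted p = 0.361). Its ein2 arrays went the other way, with 1235 and 918 on ethylene, against 559.9 and 489 in air. That difference of 1.00 was the highest ein2 value of the set, and the ein2 air level lay under both wild-type air arrays, at 1464 and 750.5. AT4G11210 encodes a dirigent protein, a family that guides the coupling of phenolic radicals. Its level was 1938 and 1999 in ein5 ethylene, against 3518 and 3548 in ein5 air (-0.84 ± 0.14, adjusted p = 0.00694). Wild type had 1016 and 913 on ethylene, against 3776 and 2852 in air, and ein2 had 3911 and 4427 on ethylene, against 4743 and 4531 in air.

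AT4G18280, of the glycine-rich wall proteins, was the single exception to the direction in ein5. It lay at 7471 and 6901 in ein5 ethylene, against 6209 and 6357 in ein5 air (0.19 ± 0.16, adjusted p = 0.73). In wild type the levels were 1451 and 2304 on ethylene, against 6352 and 6666 in air, and in ein2 7209 and 8059 on ethylene, against 6873 and 7556 in air. In both mutants AT4G18280 thus lay well above the wild-type ethylene arrays in every array. AT1G48100, of the polygalacturonases, which cut pectin, and AT2G43670, with a carbohydrate-binding X8 domain, did not pass in ein5 (-0.49 ± 0.30 and -0.87 ± 0.30, adjusted p = 0.585 and 0.213).

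None of the 5 regulators passed in ein5. There 2 of them were lower at an unadjusted limma p under 0.05, against 7.32% of all probe sets. LBD29 encodes a LATERAL ORGAN BOUNDARIES domain transcription factor known from auxin-induced lateral root formation. It lay at 127 and 309.7 in ein5 ethylene, against 566 and 548 in ein5 air. The change of -1.41 ± 0.49 was the lowest ein5 value of all 101 probe sets, but it did not pass (adjusted p = 0.22). In wild type LBD29 lay at 198 and 58.5 on ethylene, against 805 and 378 in air, so that the 2 ethylene arrays lay far apart. In ein2 it lay at 904 and 1065 on ethylene, against 919 and 1022 in air.

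AT1G64380, of the AP2/ERF transcription factor family to which the ethylene response factors belong, lay at 1558 and 1472 in ein5 ethylene, against 2405 and 2196 in ein5 air (-0.60 ± 0.16, adjusted p = 0.0809). In wild type it lay at 567 and 499 on ethylene, against 2529 and 3039 in air. The ein2 arrays lay higher on ethylene, at 2576 and 2077, against 1605 and 1642 in air. AT1G69570, of the Dof zinc finger factors, lay at 1656 and 1307 in ein5 ethylene, against 1367 and 1874 in ein5 air, which overlap (-0.12 ± 0.20, adjusted p = 0.899). Its wild-type levels were 501 and 665 on ethylene, against 2589 and 2539.6 in air, and its ein2 levels 2937 and 2142 on ethylene, against 2759.7 and 2699.8 in air. In air, AT1G69570 was lower in both ein5 arrays than in any air array of the other genotypes.

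AT5G59700, a receptor-like kinase gene, entered the set through 1 array, since wild-type ethylene lay at 408 and 33.2, against 588 and 599 in wild-type air. In ein5 it lay at 261 and 439.5 on ethylene, against 466 and 475 in air (-0.45 ± 0.67, adjusted p = 0.879). AT1G22330, an RNA-binding protein gene, had a change of -0.33 ± 0.16 in ein5 (adjusted p = 0.417).

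Among the 4 genes of membranes and transport, 2 were called lower in ein5, against 38.6% of the set and 0.849% of all probe sets. The change was negative in all 4, against 56.7% of all probe sets. AT1G72140 belongs to the NRT1/PTR family, whose members move nitrate, peptides and other small molecules. Its level was 799 and 689.8 in ein5 ethylene, against 1616 and 1772 in ein5 air (-1.17 ± 0.18, adjusted p = 0.00425). In wild type the levels were 732 and 966 on ethylene, against 2899 and 2135 in air. The ein5 and wild-type arrays of AT1G72140 therefore overlapped on ethylene, although the ein5 air arrays were the lower ones. In ein2 it lay at 3627 and 4006 on ethylene, against 4535 and 3647 in air, above every array of the other genotypes.

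AT5G23750 encodes a remorin, a protein of plasma membrane domains. It lay at 2293 and 2609.6 in ein5 ethylene, against 4165 and 3908 in ein5 air (-0.72 ± 0.13, adjusted p = 0.014). Its wild-type levels were 1527 and 1617 on ethylene, against 5133 and 4059 in air, and its ein2 levels 3092 and 3414 on ethylene, against 3464 and 3502 in air. OCT1, an organic cation and carnitine transporter gene, lay at 854 and 866 in ein5 ethylene, against 1282 and 1189 in ein5 air. The arrays of OCT1 did not overlap, but the change of -0.51 ± 0.16 did not pass (adjusted p = 0.17). AT2G48060, a gene of the PIEZO family of mechanosensitive channels, lay at 961 and 995 in ein5 ethylene, against 989.9 and 1008 in ein5 air (-0.03 ± 0.22, adjusted p = 0.985). In wild type it lay at 459.9 and 331 on ethylene, against 1151 and 1369 in air, and in ein2 at 805 and 705 on ethylene, against 763 and 922 in air.

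Of the 7 other metabolic enzymes, 3 were called lower in ein5, against 38.6% of the set and 0.849% of all probe sets. The change was negative in all 7, against 56.7% of all probe sets. AT1G66800 belongs to a family of NAD(P)-binding enzymes related to cinnamyl alcohol dehydrogenase. It had the lowest ein5 change of the genes that passed, with 963 and 992 in ein5 ethylene, against 2415 and 2618 in ein5 air (-1.35 ± 0.18, adjusted p = 0.00134). Wild type had 755 and 760.0 on ethylene, against 3595 and 2226 in air, and ein2 had 3282 and 3776 on ethylene, against 3334 and 3445 in air. Here ein5 on ethylene lay closer to wild type than to ein2.

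AT4G17470 and AT4G36610 encode members of the alpha/beta hydrolases, a broad enzyme superfamily. AT4G17470 lay at 989.6 and 1077 in ein5 ethylene, against 2991 and 2293 in ein5 air (-1.33 ± 0.22, adjusted p = 0.00735). In wild type it lay at 627 and 604 on ethylene, against 2853 and 1529 in air, and in ein2 at 4192 and 4663 on ethylene, against 4374 and 4166 in air. Both gases in ein2 thus gave levels above every array of the other genotypes. AT4G36610 had levels of 2076 and 2136 in ein5 ethylene, against 4320.5 and 3742 in ein5 air (-0.93 ± 0.16, adjusted p = 0.00798). Its wild-type levels were 715 and 992 on ethylene, against 5541 and 4373 in air, and its ein2 levels 5442 and 5652 on ethylene, against 4972 and 4555 in air.

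UGT71C1, a glucosyltransferase gene of secondary metabolism, lay at 2136 and 2752 in ein5 ethylene, against 3195 and 2296 in ein5 air (-0.16 ± 0.17, adjusted p = 0.8). In wild type it lay at 2656 and 2432 on ethylene, against 6605 and 8227 in air. The ein2 levels were 3903 and 3749.5 on ethylene, against 4192 and 4532 in air. Both mutants therefore lay in air under both wild-type air arrays, and the ein5 arrays overlapped with wild-type ethylene. AT5G62420 of the aldo-keto reductases, AT5G41900 of the alpha/beta hydrolases and AT5G58784 of the cis-prenyltransferases did not pass in ein5 (-0.79 ± 0.34, -0.58 ± 0.19 and -0.46 ± 0.51, adjusted p = 0.346, 0.18 and 0.812).

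In the remaining families AT4G25780, which encodes a secreted protein of the group that includes the pathogenesis-related protein PR-1, had the largest wild-type difference of the 43 genes. In ein5 it lay at 2257 and 2738 on ethylene, against 4904 and 4489.9 in air (-0.91 ± 0.12, adjusted p = 0.00108). It lay at 972 and 1068 in wild-type ethylene, against 5852 and 6134 in wild-type air. Its ein2 arrays, at 5669 and 5812 on ethylene, also lay under those in air, at 6566 and 6661, a difference of -0.20. The oleosin family gene AT2G25890, for a protein of the oil body surface, lay at 6793 and 8192 in ein2 ethylene and 8035 and 8050.1 in ein2 air, against 651 and 649 in wild-type ethylene and 2047 and 2216 in wild-type air. In ein5 AT2G25890 lay at 1576 and 1094 on ethylene, against 1885 and 1606 in air (-0.40 ± 0.16, adjusted p = 0.318).

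None of the remaining 4 genes of these families passed in ein5: AT2G02630 and AT3G45530 with C1 domains, AT1G20030 of the thaumatins and AT3G55840 of the Hs1pro-1 family had ein5 changes of -0.50, -0.46, -0.36 and -0.68, with adjusted p values of 0.747, 0.638, 0.701 and 0.448. Of the 8 genes given no role, AT1G17090 fell in ein5, to 1123 and 1098 on ethylene, against 2186 and 1866 in air (-0.85 ± 0.19, adjusted p = 0.0409), a call lost in 10 of 21 alternative settings. AT4G01140, AT3G13980 and AT4G35690 did not pass in ein5 (-0.50 ± 0.14, -0.61 ± 0.15 and -0.79 ± 0.27, adjusted p = 0.102, 0.0668 and 0.199). AT3G25640, at 876 and 1029.9 in ein5 ethylene, against 1572 and 901 in ein5 air, also did not (-0.32 ± 0.26, adjusted p = 0.698). AT4G10910, AT1G76620 and AT4G24130 had ein5 changes of -0.77, -0.33 and -0.48, none of which passed.

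Of the 56 unlisted probe sets, 25 were called lower in ein5 and 0 higher, against 0.849% and 0.774% of all probe sets. The change was negative in all 56, against 56.7% of all probe sets. Its median was -0.73, against -0.68 for the 43 genes. Both ein5 ethylene arrays lay under both ein5 air arrays in 53 of the 56 and in 37 of the 43, against 28.0% of all probe sets.

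Levels between genotypes are a description, since the choice required a high wild-type air level, a wild-type ethylene level well under it, and an ein2 ethylene level near or above that of ein2 air. On ethylene both ein5 arrays lay above both wild-type arrays in 90 of the 101 probe sets and below in 0, with 11 overlapping, against 21.0% above and 23.7% below over all probe sets. Against ein2 ethylene, both ein5 ethylene arrays lay lower in 91 and higher in 3, against 33.1% and 23.5% of all probe sets. In air, ein5 lay under both wild-type arrays in 60 (59.4%) and above them in 13, against 25.8% and 27.8% of all probe sets, with a median difference of -0.33. Both ein5 air arrays also lay under both ein2 air arrays in 64 and above them in 17, against 27.1% and 25.9% of all. For ein2 against wild type in air the counts were 32 lower and 32 higher, against 22.8% and 24.8% of all probe sets.

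Values close to the limits of the choice ran on without a gap. The genes below are the nearest among probe sets with 1 gene. Unlisted members lay nearer to 2 of the limits, with a highest wild-type change of -1.501 and a lowest ein2 change of -0.297. AT3G55840 and AT1G22330 were just inside the wild-type limit, at -1.51 and -1.52, and EXPB1 and AT5G19970 just outside, both at -1.49. At the ein2 limit AT3G55840 and AT1G20030 were inside, at -0.28 and -0.27, while AT3G21670 and AT3G32030 were outside, at -0.32 and -0.33. At the brightness limit AT5G58784 and LBD29 were inside, at 9.05 and 9.15, and AT1G11125 and AT5G62330 outside, at 8.96 and 8.95.

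Related genes outside the set were counted from lists matched by symbol or synonym, each probe set with 1 gene. Of all probe sets, wild type had 6.28% called lower and 3.82% higher, ein5 had 0.849% lower and 0.774% higher, and ein2 had 0.0396% lower and 0.475% higher. Of 18 expansin genes, whose proteins loosen the wall, 6 fell and 1 rose in wild type, 1 fell in ein5 and 0 were called in ein2, with a wild-type median of -0.24. EXPB1 had values of -1.49 ± 0.18 in wild type (adjusted p = 9.42e-05), -0.55 ± 0.18 in ein5 (adjusted p = 0.194) and -0.06 ± 0.18 in ein2 (adjusted p = 0.958). EXLB1 was the expansin gene that fell in ein5 (-1.08 ± 0.18, adjusted p = 0.00844), with -0.53 ± 0.18 in wild type (adjusted p = 0.0945). Of 10 xyloglucan endotransglucosylase genes, whose enzymes cut and rejoin wall xyloglucan, 1 fell and 2 rose in wild type, 1 fell and 1 rose in ein5, and 1 rose in ein2. XTH32 was the one that fell in ein5 (-0.63 ± 0.13, adjusted p = 0.026), with -0.27 ± 0.13 in wild type.

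Of 11 genes whose names or synonyms hold the words transporter or aquaporin, 5 fell in wild type, 1 fell in ein5 and 0 were called in ein2. OCT1 is both in this list and in the set. The glucosinolate transporter genes GTR1 and GTR2 changed in wild type by -0.85 ± 0.14 and -0.58 ± 0.12 (adjusted p = 0.00108 and 0.00473). OCT5, a relative of OCT1, fell in wild type (-0.51 ± 0.11, adjusted p = 0.00716) and in ein5 (-0.52 ± 0.11, adjusted p = 0.0271). The 4 pectin genes included PME61, and outside the set ATPMEPCRB rose in wild type (0.50 ± 0.11, adjusted p = 0.00964) and 2 were not called in any genotype. Of 18 transcription factor genes matched by name 2 rose in wild type, 1 rose in ein5 and 0 were called in ein2, with 0 lower in any genotype. This list held 0 members of the set, since the name match missed LBD29, AT1G64380 and AT1G69570, so it does not stand for transcription factors in general. Of the ethylene pathway list only 3 genes matched a probe set with 1 gene, and the array may measure others through unlisted probe sets. RTE1, for a regulator of the receptor ETR1, rose in all 3 genotypes. Its changes were 1.28 ± 0.12 for ein5, 1.32 ± 0.12 for ein2 and 1.96 ± 0.12 for wild type. ETP2 and EIN3 were not called in any. The lists for very-long-chain lipid and cuticle, for wall glycoproteins, and for laccase, dirigent and monolignol held 3 genes each. None of these was called in any genotype, and the wild-type medians were 0.29, 0.19 and 0.10. They held 0 members of the set, since the name match missed WSD1, AT4G16980, AT2G22510 and AT4G11210. These lists therefore do not stand for cuticle, wall glycoprotein or dirigent genes in general. Of 8 subtilase genes and 2 cellulose synthase genes, 1 each fell in wild type and 0 were called in the mutants. The 2 brassinosteroid genes were not called in any genotype.

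Markers of other tissues were few. The root hair expansin genes EXPA7 and EXPA18 had wild-type values of 0.81 ± 0.22 and 0.31 ± 0.16, of which the first passed (adjusted p = 0.0304), and the oleosin gene OLEO3 rose in wild type by 0.76 ± 0.16 (adjusted p = 0.00563). In ein5 and ein2 0 of these 3 were called, with ein2 changes of 0.79, 0.42 and 0.24 for EXPA7, EXPA18 and OLEO3. Of the epidermal, vascular and hook markers listed, none matched a probe set with 1 gene. None of the 5 photosystem and light-harvesting genes was called in any genotype. In whole seedlings fewer cells of a type and less RNA per cell cannot be told apart, and the part of these markers in the changes of the set was not tested.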

How the data were processed

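Each of 12 ATH1 arrays, 2 in each of 6 groups, gave 1 intensity per probe set. Per the series text, the authors quantified scanned images with GeneChip Suite and managed them in GeneSpring; the deposited intensity values had array medians between 922 and 1039, and how they were scaled is not given in the sources used here. Every column matched 1 sample title. For each array the median of values above 10 was set to the mean of these medians over the 12 arrays, and log2(x + 16) was taken.

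limma 3.58.1 in R 4.3.3 (lmFit, eBayes with a variance trend) was fitted to 6 group means over all 12 arrays, with 6 residual degrees of freedom, and p-values were adjusted by Benjamini-Hochberg over 22746 probe sets with a threshold of 0.05. The procedure was tested on simulated data. Only the ein5 comparison was tested for the set. With 2 arrays a group, the number of arrays limits the precision.

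Probe sets were named through the platform annotation, which gave 13513 with 1 gene, 503 with several and 8730 not listed, and symbols came from the RefSeq table of TAIR10.1. Genes named with values were those called in ein5, the 15 lowest in wild type, the 5 highest in ein5, those with a symbol, and those at the limits of the choice; the remaining members were added to account for each one, and genes of the lists were named after their values were seen. The roles of locus numbers, and the wax ester synthase family, were written by hand after values were seen. The members and lists were chosen with earlier results of these data known. Lists for lipid transfer, leucine-rich repeat kinases, gibberellin, auxin and epidermal, vascular and hook markers matched no gene. Alternatives were the deposited scale, quantile normalization, offsets of 1 and 64, a filter on dim probe sets, no variance trend, array weights, a replicate block, the compared groups alone, and leaving out each array.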

Additional observations from a re-analysis of the deposited data

Results flagged for a closer look

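In 10 of the 43 named genes both ein2 ethylene arrays lay above both ein2 air arrays, while both ein5 ethylene arrays lay below both ein5 air arrays. The difference between ein2 and ein5 was not tested, and the ein2 side was limited from below by the choice of the set. The ein2 changes (log2, ethylene minus air) were 1.00 for AT5G15780, 0.61 for AT2G22510, 0.51 for AT1G64380, 0.49 for AT1G48100 and 0.36 for PME61. They were 0.31 for AT5G59700, 0.25 for AT4G16980, 0.22 for AT4G36610, 0.21 for AT1G22330 and 0.13 for AT3G13980. Of the 10, 5 encode cell wall proteins and 3 regulators. These roles were given by hand, after values were seen, to 9 and 5 of the 43 genes. Over the 101 probe sets 20 showed these opposite directions, against 6.92% of all probe sets. In ein5 alone, both ethylene arrays lay under both air arrays in 92 of the 101, against 28.0% of all. In ein2 alone, both ethylene arrays lay above both air arrays in 21 of the 101, against 24.4% of all. Rises in ein2 were thus no more frequent in the set than over all probe sets.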

How the results depend on the processing

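The median ein5 change of the set stayed between -0.75 and -0.64 under every alternative run. The 39 calls became 5 without a variance trend and 12 to 44 with each array left out, and the 14 named ones became 0 without a variance trend and 5 to 15 with each array left out. Over all probe sets, lower and higher calls in ein5 (193 and 176) were 21 and 29 when no variance trend was fitted, 487 and 380 under array weights, and 42 to 326 and 57 to 250 with each array left out. In wild type (1429 and 869) they were 862 and 461 without a trend, 861 and 448 with array weights, 524 and 289 with only the compared groups, and 938 to 1480 and 536 to 1366 with each array left out. In ein2 (9 and 108) higher calls were 28 without a trend; lower and higher calls were 51 and 241 with array weights, 91 and 367 with only the compared groups, and 0 to 20 and 37 to 179 with each array left out. The causes were not tested. The choice itself gave 88 probe sets on the deposited scale, 86 after quantile normalization, and 105 and 89 with offsets of 1 and 64. Same-numbered arrays did not deviate together over all probe sets (correlations -0.04 to 0.07 over 15 pairs of groups). Whether the numbers mark shared cultures is not labelled, and these correlations cannot tell. With the replicate block 37 of the 101 were called, 36 of them shared with the 39. Of the 14 named calls under 21 alternatives, 238 results kept the call and 56 lost it, and of the other genes named by the rule 325 stayed without one and 11 gained one.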
